A study of Caenorhabditis elegans with 80 samples.

Results

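The str genes and odr-10 make up 1 of the large families of chemoreceptor genes of Caenorhabditis elegans, and they were represented by 199 of the 23232 probes of the array. The members were all probes whose gene symbol was str- followed by a number, plus odr-10, and they stood for 186 of the 227 family genes of the annotation. Chromosome V held 157 of these probes (149 genes), or 78.9% of the members against 25.9% of all positioned probes. A further 31 probes (27 genes) lay on chromosome IV, and 11 were spread over chromosomes X, II, III and I. Of the 186 genes, 90 stood directly beside another family gene in gene order, 10 had 2 or more probes, and 4 probes belonged to pseudogenes.

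The family encodes membrane receptors that sit in the cilia of chemosensory neurons, where they pass an odour or pheromone signal to G proteins. Each receptor is typically made in a few neurons of the head, and 1 neuron usually makes many of them. In RNA of whole larvae, as measured here, such a transcript is therefore carried by a very small share of the cells, and a ratio cannot tell fewer cells of a type from less RNA per cell. Best known are odr-10, the diacetyl receptor of the AWA neurons, str-1, a marker of AWB, str-2, made in only 1 of the paired AWC neurons, str-3, made in ASI and lowered by dauer pheromone, str-44, made in AWA under control of feeding state, and str-217, needed in ADL for sensitivity to the repellent DEET and altered in the Hawaiian strain CB4856.

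Recombinant inbred lines of the Bristol strain N2 and CB4856 were grown at 2 constant temperatures to the third larval stage, which took 40 h at 24 °C and 72 h at 16 °C. At each temperature 40 arrays were hybridised, each with RNA of 2 lines that differed strongly in genotype, 1 in Cy3 and 1 in Cy5, and each value is the log2 ratio of these 2 lines. The question put to the members was whether their RNA level differed between the lines, and whether that difference was the same at both temperatures. The same lines shared an array, on the same dyes, in 39 cases at both temperatures, so that 39 strain pairs (78 of the 80 arrays) could be set against each other.

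The labels name a pool of dishes for each line and temperature and no repeat, so the strain pairs are the replicates here. The direction of a ratio is not known, because no source gives the dye on top, and the base of the logarithm is read as 2 from the tool named. A ratio carries no level, so whether a receptor was more abundant at 24 °C or at 16 °C cannot be read from these values. Temperature also cannot be told apart from larval age in hours or from anything else that separated the hybridisations of each temperature. The spread of all ratios of an array (SD) was 1.16 to 1.65 at 24 °C and 1.04 to 1.48 at 16 °C. The pair WN3/WN22 stood apart: over the 242 probes of any gene whose ratios repeated between temperatures, its values correlated negatively (r = -0.688), whereas the median of the pairs was 0.737. These probes were chosen for a positive r across the same pairs, which by itself makes that median high. Over all probes WN3/WN22 had r = -0.112 and WN80/WN7 had -0.0895, and the median was 0.0781.

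No member had ratios that were called repeatable between 24 °C and 16 °C. A probe was called repeatable when the Pearson correlation of its 2 sets of 39 ratios passed an adjusted p of 0.05 (Benjamini-Hochberg over all 23232 probes). None of the 199 members was called with a positive r, while 1.04% of all probes were, and none with a negative r, against 0.0258% of all probes. At an unadjusted p under 0.05, 5 members (2.51%) were positive, against 5.93% of all probes, and 3 (1.51%) were negative, against 1.77%. The moderated F-test of limma for strain pair also called 0 members, and 328 probes in all. The median r of the members was -0.00233 (jackknife SE 0.0255, n = 39 pairs), and that of all probes was 0.0320. An r above 0 was seen for 97 members (48.7%) and for 57.6% of all probes.

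**Figure D1:**
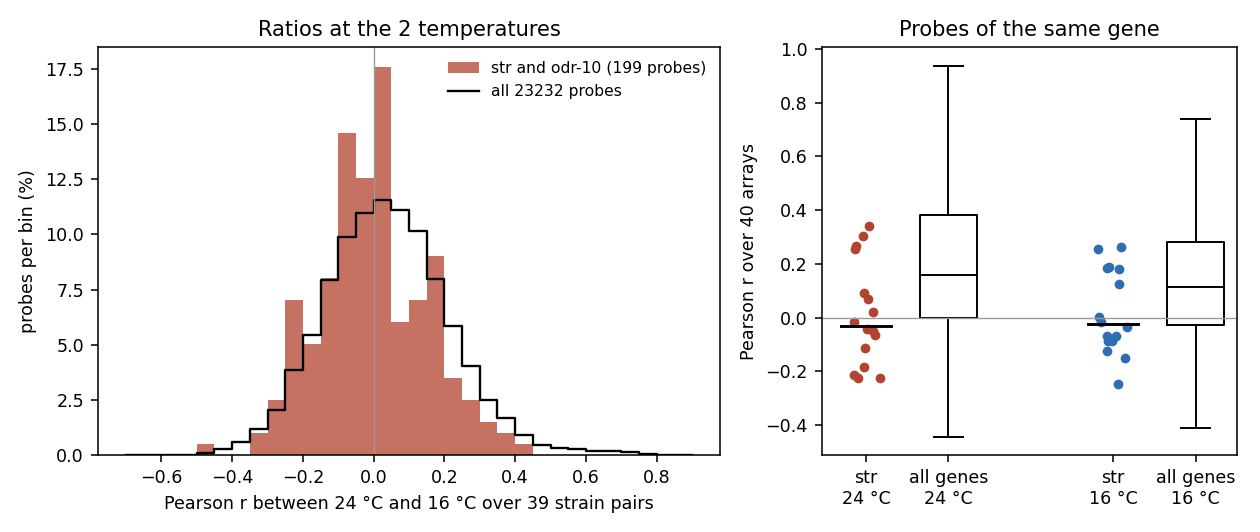
Left, distribution of the Pearson r between ratios at 24 °C and 16 °C over 39 strain pairs, as percent of probes per bin, for the 199 str and odr-10 probes (bars) and all 23232 probes (line). Right, r over the 40 arrays of each temperature between probes of the same gene, for the 16 str combinations (points, with their median as a bar) and all 1277 combinations (boxes: quartiles and median, whiskers to 1.5 interquartile ranges). No member lies in the far right-hand tail, which holds few of all probes (1.04% were called repeatable with a positive r). The same-gene medians of the members lie at -0.03 at both temperatures.

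The members of known role showed this in detail. The ratio of odr-10 at 24 °C was -2.75 at the lowest, 0.05 at the median and 1.73 at the highest of the 39 pairs, and at 16 °C it was -3.68, -0.68 and 1.71. The pairs at the ends were different ones at the 2 temperatures: WN45/WN12 and WN9/WN62 at 24 °C, WN60/WN77 and WN17/WN33 at 16 °C. The r of odr-10 was 0.0127. For str-217 the lowest, median and highest ratios were -4.08, 0.36 and 3.14 at 24 °C and -2.98, -0.19 and 2.63 at 16 °C. The pair WN19/WN55 had the highest str-217 ratio at both temperatures, but over all 39 pairs r was -0.00314, and 18 pairs lay on the same side of the mean at both.

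For str-2 the 3 values were -2.83, -0.40 and 2.15 at 24 °C and -1.48, 0.33 and 3.62 at 16 °C. The AWB marker str-1 had -2.24, 0.17 and 5.88 at 24 °C and -2.28, 0.46 and 5.46 at 16 °C, the highest value being that of WN58/WN38 at 24 °C and of WN9/WN62 at 16 °C. The ratios of str-3 were -2.67, 0.18 and 4.43 at 24 °C and -1.64, 0.24 and 4.38 at 16 °C, and those of str-44 were -3.32, -0.21 and 2.73 at 24 °C and -3.06, 0.13 and 2.02 at 16 °C. Over these 6 genes r lay between -0.159 (str-44) and 0.109 (str-2), with permutation p of 0.34 to 0.99 for r and 0.33 to 0.98 for Spearman's rho (100000 resamples, two-sided). Adjusted over all probes, p was 0.936 to 0.998, and without the 2 pairs farthest from the median r lay between -0.179 and 0.0902.

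**Figure D2:**
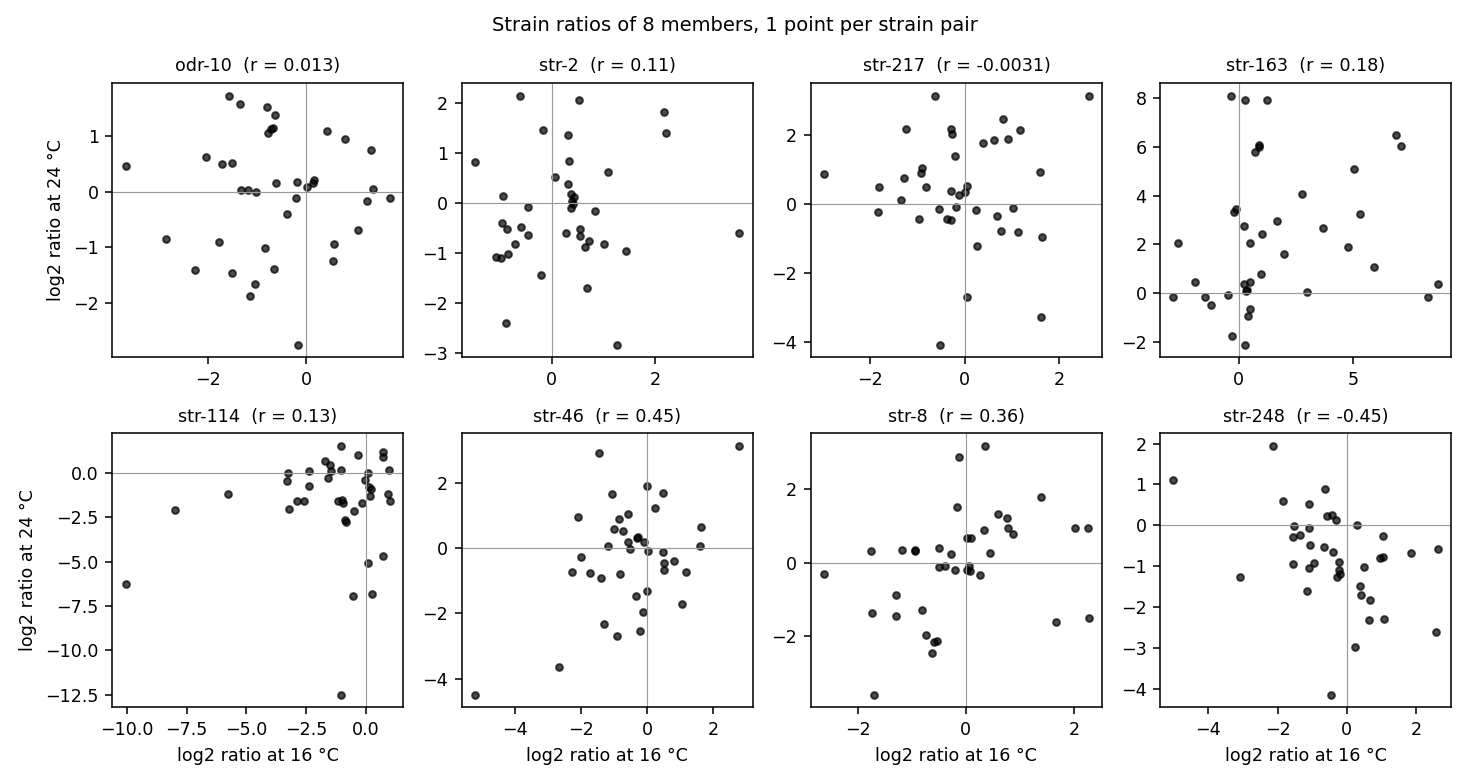
Log2 ratio at 24 °C (vertical) against that at 16 °C (horizontal) for 8 members, 1 point per strain pair (n = 39), with r above each panel. The points of odr-10, str-2 and str-217 form no line, str-163 and str-114 have long arms along both axes, and the slope of str-46 leans on a few end points.

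The highest correlation between temperatures belonged to str-46 (r = 0.445, permutation p 0.005, adjusted p 0.226). Its ratio was -4.50 in WN24/WN49 and 3.15 in WN8/WN41 at 24 °C, and the same pairs held the ends at 16 °C, with -5.23 and 2.79. Without the 2 farthest pairs r was 0.123, and Spearman's rho was 0.203 (permutation p 0.21), so the relation of str-46 rests on those pairs. For str-8 r was 0.356 (permutation p 0.027) and rho was 0.485 (permutation p 0.002), yet its adjusted p was 0.522. Without the 2 pairs farthest at 16 °C its r was 0.475. These included WN57/WN32 (2.27 at 16 °C, -1.51 at 24 °C), while WN58/WN38 (-3.59 at 24 °C, -1.70 at 16 °C) was kept. Next came str-257 (r = 0.361), str-146 (0.339) and str-69 (0.318), with adjusted p of 0.508 to 0.641. Without the 2 farthest pairs these were 0.459, 0.351 and 0.214, rho was 0.312, 0.252 and 0.234, and the permutation p was 0.024, 0.035 and 0.050 for r and 0.055, 0.12 and 0.15 for rho. For str-257 WN61/WN39 (2.87 at 16 °C, -0.87 at 24 °C) was left out, and WN67/WN26 (2.25 at 16 °C, 4.60 at 24 °C) was kept.

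At the other end, str-248 had the lowest r (-0.450, permutation p 0.0049, adjusted p 0.217). Its rho was -0.463 (p 0.0034) and its r without the 2 farthest pairs was -0.426: only 12 of 39 pairs lay on the same side of the mean at 24 °C as at 16 °C. Negative values were also found for str-123 (r = -0.342, rho -0.342, -0.223 without 2 pairs) and str-238 (r = -0.338, rho -0.416, -0.279 without 2 pairs), whose adjusted p was 0.565 and 0.576. The permutation p of r and of rho was 0.036 and 0.033 for str-123, and 0.034 and 0.009 for str-238.

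The same was found array by array. With each probe centred on its mean at a temperature, the ratios of the 199 members at 24 °C and 16 °C correlated in a strain pair with a median r of -0.0101 (lowest -0.300, highest 0.202), and r was above 0 in 17 of 39 pairs. Over all probes the median was 0.0781, and 35 of 39 pairs were above 0. By its members, the array at 16 °C was most like the array of its own pair at 24 °C in 2 of 39 cases, and by all probes in 11 of 39. The lines WN38 and WN80 each stood on 2 arrays per temperature, on opposite dyes, where a difference of that line turns r negative. Over all probes r was -0.277 at 24 °C and -0.104 at 16 °C for WN38, and -0.259 and -0.0907 for WN80. Over the members it was -0.0411 at 24 °C and -0.0270 at 16 °C for WN38, and 0.0230 and 0.0105 for WN80. WN65 stood on 2 arrays at 24 °C only, also on opposite dyes, with r = 0.110 over the members and -0.0476 over all probes.

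Several probes annotated to 1 gene give a check within an array, as far as they read the same gene. Their sequences and places on the transcript were not available here. Among the members 10 genes had 2 or 3 probes, which gave 16 combinations. Their median r was -0.0303 at 24 °C and -0.0252 at 16 °C over 40 arrays, and 3 of the 16 were above 0 at both temperatures. Over all 1277 combinations of 860 genes the medians were 0.158 at 24 °C and 0.113 at 16 °C, and 701 were above 0 at both. In genes with at least 1 repeatable probe, the medians were 0.646 at 24 °C and 0.473 at 16 °C (50 combinations of 30 genes). Other chemoreceptor genes also had low values, such as srh-111 (-0.0538 at 24 °C, -0.103 at 16 °C) and srx-84 (-0.118 and -0.321). Some had higher ones, such as sri-70 (0.338 and 0.163) and srw-119 (0.119 and 0.422). Their families were not summarised, so low same-gene values are not read as particular to the str genes.

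The highest same-gene value among the members was that of probes 2 and 3 of str-199, with r = 0.341 at 24 °C and 0.182 at 16 °C. Probes 1 and 2 of str-154 followed with -0.0177 at 24 °C and 0.255 at 16 °C, and probes 1 and 2 of str-156 with 0.303 at 24 °C and -0.0869 at 16 °C. Lowest were the probe pairs of str-140 (-0.224 at 24 °C, -0.247 at 16 °C), str-139 (-0.213 and -0.0672) and str-63 (-0.226 and -0.0169). In close families a probe can also take up RNA of a similar gene, so the assignment of a probe to 1 receptor is uncertain.

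The ratios of the members nevertheless spread widely. The median SD over 39 pairs was 1.32 at 24 °C and 1.29 at 16 °C, against 1.11 and 1.04 over all probes. The SD of 160 of the 199 members at 24 °C, and of 168 at 16 °C, was above the median of all probes, and 75 at 24 °C and 84 at 16 °C lay above the third quartile. A ratio beyond 2 on either side of 0, on the log2 scale, was found in 12.2% of the member values at 24 °C and in 10.6% at 16 °C, against 9.67% and 7.67% of all values. The same 2 members, str-163 and str-114, had the largest SD at both temperatures. Above the third quartile at both were 32 members (16.1%, against 13.6% of all probes). Since more members than probes at large were above it at each temperature alone, these 2 shares do not show that wide spread was more lasting in the members. The log SDs at 24 °C and 16 °C correlated with r = 0.161 across the 199 members and r = 0.742 across all probes, a description over probes that share arrays.

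The widest were str-163 on chromosome IV and str-114 on chromosome V. The ratio of str-163 was -2.10 at the lowest, 1.91 at the median and 8.09 at the highest at 24 °C (SD 2.82), and -2.85, 0.50 and 8.69 at 16 °C (SD 2.89). The high pairs differed: WN70/WN48 had 8.09 at 24 °C and -0.32 at 16 °C, while WN75/WN66 had 0.38 at 24 °C and 8.69 at 16 °C. For str-114 the 3 values were -12.50, -1.21 and 1.52 at 24 °C (SD 2.73) and -10.04, -0.99 and 0.99 at 16 °C (SD 2.32). Its lowest pair at 24 °C was WN70/WN48, which had -1.05 at 16 °C. The r between temperatures was 0.180 for str-163 and 0.126 for str-114. Then came str-153 (SD 1.67 at 24 °C and 2.11 at 16 °C), str-130 (1.71 and 1.74) and str-141 (1.799 and 1.61), with r of -0.191, -0.0595 and 0.183.

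Averaged over the 39 pairs, str-163 lay above 0 at both temperatures (mean 2.29 at 24 °C and 1.60 at 16 °C) and str-114 below it (-1.70 and -1.39). They were the only 2 members whose mean was beyond 1 on either side of 0, at either temperature. Across the 199 members the mean ratio at 24 °C and that at 16 °C correlated with r = 0.503 (0.657 across all probes), and 120 had the same sign at both. Such a mean is common to pairs of different lines, and since no dyes were swapped it cannot be told apart from a dye difference of the probe.

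Differences in spread between the temperatures were tested with the Pitman-Morgan test of paired values. The SD was larger at 24 °C for 13 members (6.53%, against 6.12% of all probes) and larger at 16 °C for 8 members (4.02%, against 3.004% of all probes), at an adjusted p under 0.05. This balance depended on the scaling: 4 members were larger at 24 °C and 13 at 16 °C after the ratios of each temperature were put on a common median SD, and 3 and 11 with each array centred and scaled. The shares of all probes under these scalings are not given here, so the shift is not read as a trait of the members. With ranks in place of values 0 members at 24 °C (1.36% of all probes) and 1 at 16 °C (str-87; 0.254% of all probes) were called, so that 20 of the members called on values were not called on ranks. The median log2 SD ratio of the members, 24 °C over 16 °C, was 0.057 (jackknife SE 0.077), and that of all probes was 0.105. With each array centred and scaled it was -0.062, and -0.012 over all probes. Of the 8 with a larger SD at 16 °C, 4 were on chromosome IV (12.9% of its 31 members, against 3.71% of all its probes), a split chosen after the values were seen.

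**Figure D3:**
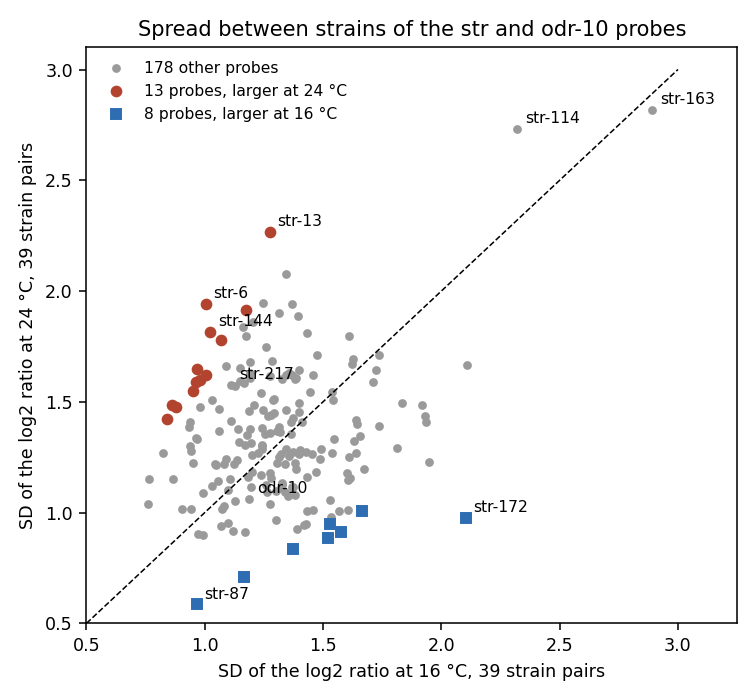
SD of the log2 ratio over 39 strain pairs at 24 °C (vertical) and 16 °C (horizontal), 1 point per str or odr-10 probe, with the line of equal SD dashed. Coloured points passed the spread test (13 larger at 24 °C, 8 larger at 16 °C), and str-114 and str-163 lie far out but near the line.

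The largest difference was that of str-172 on chromosome IV. Its ratio was -1.78 at the lowest, 0.16 at the median and 2.21 at the highest at 24 °C, and -8.34, -0.51 and 3.51 at 16 °C. The SD was 0.98 at 24 °C and 2.104 at 16 °C (log2 ratio -1.11, adjusted p 6.7e-04), and 1 pair at 24 °C against 7 at 16 °C had a ratio beyond 2. Without WN15/WN35, the pair at -8.34, the log2 SD ratio was -0.83. With ranks its adjusted p was 0.174.

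At 24 °C the larger spread was most marked for str-6. Its ratio was -3.52, 0.37 and 7.76 at the lowest, median and highest pair at 24 °C, and -3.63, 0.02 and 2.40 at 16 °C, with SDs of 1.94 and 1.00 (log2 ratio 0.95, adjusted p 0.0043). Without the highest pair, WN16/WN34, the log2 ratio was 0.61. For str-13 the 3 values were -4.41, 0.43 and 6.65 at 24 °C and -2.74, 0.28 and 4.09 at 16 °C (log2 SD ratio 0.83, adjusted p 0.0152), and 12 pairs at 24 °C against 4 at 16 °C were beyond 2. Without any 1 pair, this ratio was 0.70 at the smallest.

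The other named members had log2 SD ratios of 0.75 to 0.83 in favour of 24 °C and -0.72 to -0.79 in favour of 16 °C. Larger at 24 °C were str-144 (0.83, adjusted p 0.0155), str-256 (0.78, 0.0208), str-97 (0.77, 0.0268), probe 1 of str-200 (0.76, 0.0245) and probe 2 of str-155 (0.75, 0.0302). The value of str-97 was 0.10 without 1 pair, WN70/WN48, whose ratio at 24 °C was 7.59. That of str-144 was 0.49 without WN8/WN41. Larger at 16 °C were probe 2 of str-156 (-0.79, adjusted p 0.0217), str-268 (-0.78, 0.0243), str-68 (-0.73, 0.0370) and str-87 (-0.72, 0.0383). The last had the smallest SD of all members at 24 °C, 0.59, against 0.97 at 16 °C, and was the member that also passed with ranks (adjusted p 0.0496). Among the other members called, taken up after their values were seen, probe 1 of str-140 (-0.71) had 0.05 without WN29/WN78, which turned its direction. Leaving out 1 pair also took str-88 to 0.32 (0.71 with all pairs), str-33 to 0.29 (0.70), str-228 to 0.43 (0.69), str-264 to 0.47 (0.73) and str-151 to -0.37 (-0.69), the pairs being WN70/WN48, WN58/WN38, WN3/WN22, WN16/WN34 and WN54/WN6. The other probe of str-140 had a log2 SD ratio of -0.11 (adjusted p 0.827), and probes 1 and 2 of str-199 had 0.37 and -0.53 where probe 3 had 0.72 (adjusted p 0.0380). The other probes of str-200, str-155 and str-156 were not called for spread either.

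**Figure D4:**
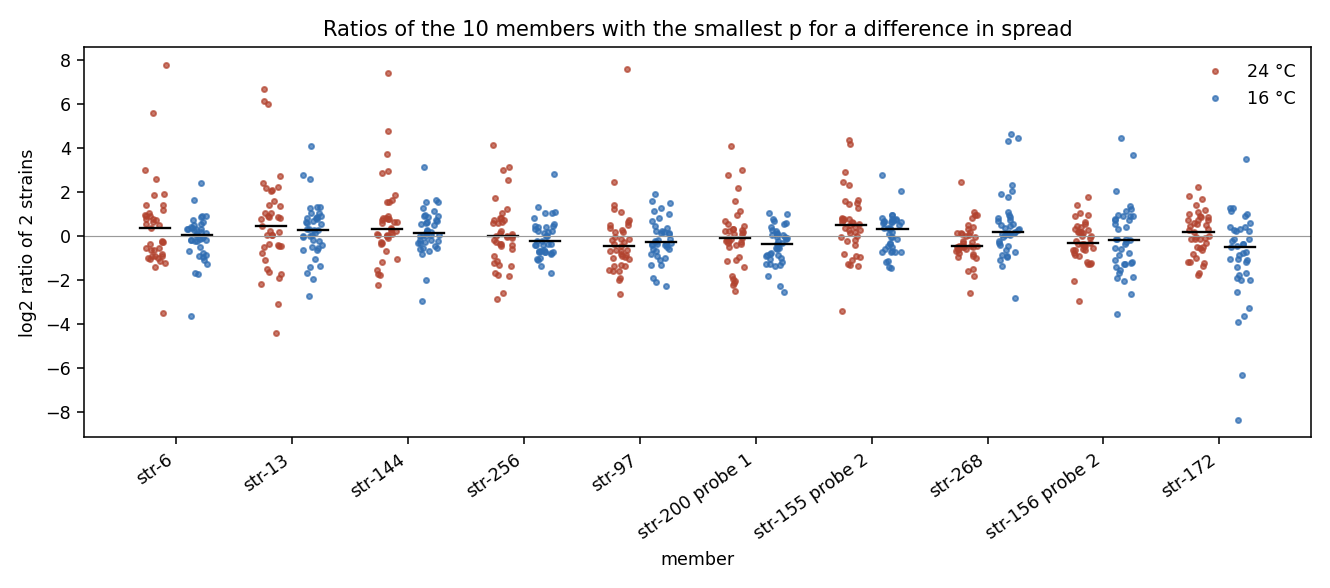
Log2 ratios of the 10 members with the smallest p in the spread test, 1 point per strain pair (n = 39), 24 °C left of 16 °C for each member, with medians as bars. Single pairs lie far out for some members, such as -8.34 for str-172 at 16 °C and 7.59 for str-97 at 24 °C, while for str-156 probe 2 the middle of the pairs is also wider at 16 °C.

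To ask whether the members followed the alleles of their own region, a local score was built for each probe from the repeatable probes of other genes within 2 Mb, at the other temperature. Of the members, 176 had the 3 or more neighbours needed (median 18). None was related to its local score at 24 °C, against 4.26% of the 11442 probes tested, and none at 16 °C, against 2.80%. The probes tested included repeatable ones, which also build these scores, and no member was repeatable. The comparison with all probes is therefore not separate from the result on repeatable ratios. At an unadjusted p under 0.05 there were 11 members at 24 °C (6.25%, against 13.6% of all probes tested) and 16 at 16 °C (9.09%, against 10.7%). Closest to the threshold were probes 2 and 3 of str-199 at 24 °C (r = -0.466 and -0.440, adjusted p 0.0614 and 0.0934) and str-45 at 16 °C (r = -0.441, adjusted p 0.121). For str-217 the local r was -0.152 at 24 °C and -0.0108 at 16 °C, from 22 neighbours.

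The study set out a group of genes whose RNA follows a locus on chromosome V at 24 °C, and it listed 43 genes with a local effect there. The first principal component of their 52 probes, taken at the other temperature, served as a score of that locus. This list was chosen on these samples and is not independent evidence. The scores from 24 °C and 16 °C correlated with r = 0.890 and took 48.8% and 40.6% of the variance of those probes. None of the 199 members was related to the score at 24 °C (2.33% of all probes) or at 16 °C (0.00431% of all probes). Without adjustment, p was under 0.05 for 16 members at 24 °C (8.04%, against 18.7% of all probes) and for 20 at 16 °C (10.1%, against 4.68%). The nearest were again probes 3 and 2 of str-199 at 24 °C (r = 0.486 and 0.474, adjusted p 0.0577 and 0.0650), followed by str-180 (r = -0.458, adjusted p 0.0745), and str-118 at 16 °C (r = 0.563, adjusted p 0.346). Probe 1 of str-199 had r = -0.0278 at 24 °C.

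The members showed little common variation. Over the 19685 combinations of probes of different member genes the mean r was 0.00893 at 24 °C and 0.0153 at 16 °C, on 40 arrays each. Among all probes the mean r was 0.00169 at 24 °C and 0.00147 at 16 °C. Among the other families of the Str superfamily it was 0.00615 and 0.0177. The r of a combination at 24 °C and that at 16 °C were themselves unrelated across combinations (r = 0.0112, a description, since combinations share probes and arrays), and 36 combinations exceeded 0.3 at both. Members directly beside each other in gene order gave a mean of 0.0208 at 24 °C and -0.0108 at 16 °C over 58 combinations. By the lower of its 2 values str-120 with str-119 stood first (0.312 and 0.277). The mean ratio of all 199 members on an array stayed between -0.31 and 0.44 at 24 °C and between -0.25 and 0.63 at 16 °C.

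Ranked by the lower of the 2 values, the first combination was str-27 with str-61, both on chromosome V (r = 0.521 at 24 °C and 0.517 at 16 °C). The highest r of any combination was 0.596 at 24 °C and 0.676 at 16 °C, in combinations that were not as high at the other temperature. Without the 2 farthest arrays the r of str-27 with str-61 was 0.351 at 24 °C and 0.396 at 16 °C. Next were str-64 with str-170 (0.442 and 0.532), str-61 with str-217 (0.390 and 0.464), str-151 with str-64 (0.382 and 0.404) and str-108 with str-25 (0.379 and 0.387). Without the 2 farthest arrays the value of str-108 with str-25 at 16 °C was 0.0744 (rho 0.190 with all arrays), so that value rests on those arrays. These were picked as the highest of 19685 and carry no test. Picked in the same way from all genes, abf-5 (0.511 at 24 °C and 0.557 at 16 °C), fbxa-69 (0.562 and 0.507) and W02D7.11 (0.581 and 0.507) were most like odr-10 over the 40 arrays of each temperature. For str-217 they were Y71F9AL.12 (0.445 and 0.472), T01D1.5 (0.399 and 0.412) and F21C10.5 (0.394 and 0.391). Between the probes of fbxa-69 r was 0.169 at 24 °C and -0.0536 at 16 °C, so its likeness to odr-10 may not be that of the gene.

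**Figure D5:**
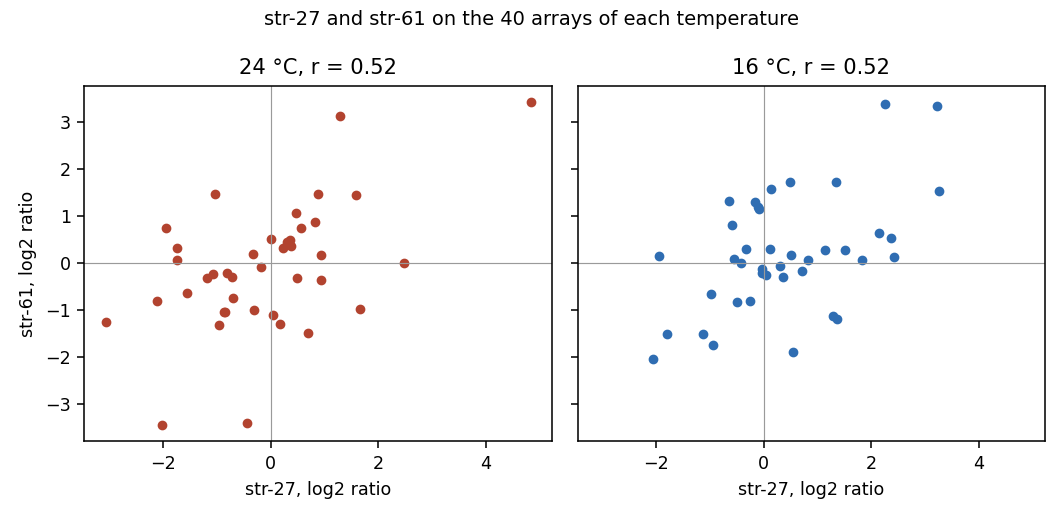
Log2 ratio of str-61 (vertical) against that of str-27 (horizontal), 1 point per array, with 40 arrays at 24 °C (left) and 40 at 16 °C (right). The slope is seen at both temperatures (r = 0.521 and 0.517), with a few arrays far from the centre.

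Genes that act with the receptors were measured on the same arrays. Of 23 genes of olfactory signal transduction and receptor trafficking, 17 had a probe, and 0 were repeatable (median r 0.0507). Their median SD was 0.96 at 24 °C and 1.17 at 16 °C. In 1 of the 17 (5.88%, against 3.004% of all probes) the spread was larger at 16 °C. This was gpa-13, which encodes a G protein alpha subunit of sensory neurons. Its SD was 0.83 at 24 °C, against 1.47 at 16 °C (log2 ratio -0.83, with an adjusted p of 0.0143 in the spread test). The ratio of tax-2, a subunit of the cyclic-nucleotide-gated channel of these neurons, was related to the chromosome V score at 24 °C (r = 0.541, adjusted p 0.0348) and not called at 16 °C (r = 0.177). It was not alone in this among the lists, since egl-21, a carboxypeptidase of neuropeptide processing among the general neuron markers (r = 0.508, adjusted p 0.0458), and 1 of 18 sperm probes were also called at 24 °C. Of all probes 2.33% were called at 24 °C. Of 17 genes that set the fate of olfactory neurons and the asymmetry of AWC, 11 had a probe, with 0 repeatable (median r 0.0629) and 0 of different spread. Among them was odr-7, the nuclear receptor that AWA needs to make odr-10, whose SD was 2.03 at 24 °C, against 1.42 at 16 °C (spread test, adjusted p 0.168).

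Markers of ciliated sensory neurons (14 of 14 genes with a probe) had a median r of 0.116 and 0 repeatable probes, and markers of neurons in general (5 of 11 genes, 6 probes) had 0.0823 and 0. The mean ratio of the ciliated markers on an array correlated with that of the members at r = 0.0679 at 24 °C and -0.247 at 16 °C, and that of the general neuron markers at -0.222 and -0.144. For sperm genes (18 probes) it was -0.148 at 24 °C and -0.0610 at 16 °C, and for collagens of the moulting cycle (5 probes) -0.0574 and -0.159. In other chemoreceptor families few probes were repeatable. Of 391 probes of the other families of the Str superfamily 0 were repeatable (median r -0.00430, median SD 1.33 at 24 °C and 1.25 at 16 °C). Of 294 probes of the Srg superfamily 1 was repeatable (median r 0.000, SD 1.37 and 1.27), and of 113 srw probes 2 were positive and 1 was negative, where 1.04% and 0.0258% of all probes were (median r 0.0227, SD 1.38 and 1.34). Related to the local score at 24 °C were 7 of 349 probes of the other Str families, 1 of 110 srw probes and 1 of 230 Srg probes, against 0 of 176 members. At 16 °C 1 probe of each of these other families was. The shares of all probes tested were 4.26% at 24 °C and 2.80% at 16 °C. The chromosome V score was related to 4 of 391 probes of the other Str families and 1 of 294 Srg probes at 24 °C, against 2.33% of all probes.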

How the data were processed

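The authors deposited normalized log2 ratios of 60-mer two-colour arrays (80 columns, 0 missing values). Per the labels limma was used (version not given in the sources used here). The median absolute ratio is equal on all arrays of a temperature (0.661 at 24 °C, 0.592 at 16 °C), so arrays were scaled to each other. Log base, dye order and background were not given, no spot brightness was used here, and precision is limited by the number of arrays. No column of another origin was used.

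Probes were named from the platform annotation (17447 with 1 gene, 5785 without) and joined to WBcel235 for chromosome and gene order (17358 joined, all 199 members); the build of the array is not named, so no coordinates are printed. Correlations, Pitman-Morgan tests and scores were computed on all probes for 39 matched pairs, with Benjamini-Hochberg adjustment over all probes, in Python 3.11.15 (numpy 2.4.6, scipy 1.17.1, pandas 2.3.3). The F-test used limma 3.58.1 in R 4.3.3. The correlation between temperatures, the Pitman-Morgan test on values and the local score at the higher temperature were tried on simulated data. The other tests, those on ranks, the chromosome V score, the F-test and the permutations included, were not tried in this way. The marker regression of the study was not run, since its genotypes were not used here. The members and lists were chosen with earlier results of these data known.

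Named in the text are members of known role, those past a threshold (at most the 10 smallest p), the 5 highest and 3 lowest r, the 5 widest, the 5 largest and 5 smallest SD ratios, the 5 best combinations, the 3 highest and 3 lowest same-gene probes, and the 3 genes most like odr-10 and str-217. str-199, str-140, str-88, str-33, str-228, str-264, str-151, str-120, str-119, str-45, str-180, str-118, odr-7, gpa-13 and tax-2 were named after their values were seen where they fall outside this rule. Alternatives were other scaling, thresholds, windows, ranks, removal of 2 principal components, and omission of pairs.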

Additional observations from a re-analysis of the deposited data

Results flagged for a closer look

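The spread of the strain ratio differed between 24 °C and 16 °C, by the Pitman-Morgan test adjusted over all probes, for each of these members, given as the log2 SD ratio of 24 °C over 16 °C. It was larger at 24 °C for str-6 (0.95), str-13 (0.83), str-144 (0.83), str-256 (0.78), str-97 (0.77), probe 1 of str-200 (0.76) and probe 2 of str-155 (0.75). It was larger at 16 °C for str-172 (-1.11), probe 2 of str-156 (-0.79), str-268 (-0.78), str-68 (-0.73) and str-87 (-0.72), and for gpa-13 (-0.83) among the genes that act with the receptors. The share of members called was close to that of all probes at both temperatures, and with ranks only str-87 kept an adjusted p under 0.05 among the members. The result of gpa-13 with ranks is not given here. The other probes of str-200, str-155 and str-156 were not called.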

How the results depend on the processing

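The 0 members with repeatable ratios stayed at 0 under every alternative run, limma, ranks and the omission of any pair included. The median r ranged from -0.0128 to 0.00603 when pairs were left out in turn. Counts of members with a larger spread at 24 °C were 3 with arrays centred and scaled, 7 without the 5 pairs of recurring strains, 0 with ranks, 4 with each temperature divided by its median SD, 1 at an adjusted p under 0.01, and 8 (without WN45/WN12) to 18 when pairs were left out. Those with a larger spread at 16 °C were 3 without recurring strains, 5 without WN3/WN22, 1 with ranks, 13 with each temperature divided by its median SD, 1 at 0.01, and 5 (without WN3/WN22 or WN4/WN73) to 10. Apart from the rank counts, the share of all probes under the same setting is not given here. The median log2 SD ratio was -0.062 with arrays scaled, -0.027 with each temperature divided by its median SD, and 0.0095 to 0.076 with pairs left out. One member was related to its local score at 16 °C with neighbours within 4 Mb. With pairs left out, 0 to 2 members were at 24 °C (2 without WN51/WN74) and 0 to 1 at 16 °C, and 0 to 2 were related to the chromosome V score at 24 °C (2 without WN19/WN55 or WN51/WN74) and 0 at 16 °C. The r of odr-10 turned to -0.0185 without recurring strains and to -0.0123 with ranks, and that of str-217 to 0.0109 with arrays scaled. Among the members called for spread, the call was lost by 20 with ranks, 12 with arrays scaled, 12 without recurring strains, 9 with each temperature divided by its median SD, 4 with 2 principal components removed and 4 without WN3/WN22. The causes were not tested. Signal over background is not known for any probe, so a weakly lit receptor probe cannot be told from a bright one. No paired analysis was possible by replicate number because the labels number the arrays of the temperatures apart; the strain pairs supply the pairing.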
